A study of Drosophila melanogaster with 2 samples.

Results

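The 493 regions described here are binding peaks of the zinc-finger protein D19B that lie at divergent coding promoters of Drosophila melanogaster. They were chosen by position alone. A divergent pair was taken as the transcription start sites of 2 different protein-coding genes on opposite strands, pointing away from each other and at most 500 bp apart. A peak was kept when its summit lay within 500 bp of a start of such a pair. Of 4309 peaks that the authors kept after an irreproducible discovery rate (IDR) step, 493 qualified. That was 11.4% of the peaks (exact 95% interval 10.5 to 12.4%), and they were nearest to 464 pairs of genes. Not all were found in each library, and 389 of the 493 had a summit within 100 bp in both. Neither height nor rank entered the choice among the 4309 peaks. Their lowest signal was 117.1, equal to that of region 4309 in the authors' ranked list for both libraries together.

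The peaks come from chromatin immunoprecipitation with sequencing of whole embryos, both sexes mixed, aged 0 to 24 h. The embryos were of a transgenic line that stably expresses D19B fused at its C terminus to green fluorescent protein (GFP), and the chromatin was pulled down with an antibody against GFP. Both libraries, biological replicates 2 and 3, belong to this 1 group, so the data hold no contrast of genotype, stage or treatment. The control used in the authors' peak calling is not analysed here, and whole embryos mix all tissues and all embryonic stages. Whether the tagged transgene carries the D19B promoter is not given in the sources used here.

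Divergent gene pairs share a short stretch of open DNA from which polymerases leave in opposite directions. In the compact fly genome such pairs are common among genes that most cells use, and several architectural proteins are known to bind between them, among them BEAF-32, Dref and M1BP. Dref binds the DNA replication-related element (DRE), BEAF-32 binds a core word contained in the DRE, and M1BP binds the core promoter word called Motif 1. D19B belongs to the ZAD family of zinc-finger proteins, which is large in insects and includes M1BP.

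The intervals between the start sites of the 2 tallest peaks are given in full, because they show how unlike the DNA under such peaks can be. A pair with no summit, of the same spacing as the tallest one, stands beside them. All are on the plus strand of dm6 and run from the start of the minus-strand gene to the start of the plus-strand gene. Capitals mark, on either strand, any of 6 searched words, which are TATCGATA (the DRE), CGATA (the BEAF-32 core), TATAAA (the TATA box), GGTCACAC (the Motif 1 core), CAGCTG (an E-box core promoter word) and ACAGGGTA (a word taken from earlier results on these peaks).
Art3/mRpS10, chr3R:15229408-15229665: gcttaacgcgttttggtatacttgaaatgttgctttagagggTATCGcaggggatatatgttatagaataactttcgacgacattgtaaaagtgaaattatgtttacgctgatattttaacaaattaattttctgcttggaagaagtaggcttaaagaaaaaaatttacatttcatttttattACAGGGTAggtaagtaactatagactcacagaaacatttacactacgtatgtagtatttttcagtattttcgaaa
D19B/CG43293, chr3L:6184920-6185189: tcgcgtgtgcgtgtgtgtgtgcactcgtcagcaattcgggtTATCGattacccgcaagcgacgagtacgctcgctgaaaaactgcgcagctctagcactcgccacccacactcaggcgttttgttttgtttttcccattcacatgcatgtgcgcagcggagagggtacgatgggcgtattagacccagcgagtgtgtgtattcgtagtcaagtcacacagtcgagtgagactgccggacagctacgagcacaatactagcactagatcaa
Oseg1/Exo70, chr3L:8411594-8411851: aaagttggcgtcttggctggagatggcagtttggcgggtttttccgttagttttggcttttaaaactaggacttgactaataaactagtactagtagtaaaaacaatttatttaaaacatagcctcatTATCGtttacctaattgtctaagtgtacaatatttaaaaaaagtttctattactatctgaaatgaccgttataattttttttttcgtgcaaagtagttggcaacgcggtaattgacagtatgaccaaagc
The Art3/mRpS10 interval has a GC content of 30.2% and holds CGATA and ACAGGGTA. That of D19B/CG43293 has a GC content of 53.0% and holds CGATA only. The Oseg1/Exo70 interval, with no summit, has a GC content of 33.3% and also holds CGATA.

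Further windows, centred on the summit with 50 bp to each side and printed from the plus strand, show the peaks at pairs with a ribosomal protein gene or an architectural protein gene, 3 of the tallest windows that hold the DRE, and an AT-rich window among the tall peaks.
eIF4EHP/CG18428, chr3R:24109175-24109275: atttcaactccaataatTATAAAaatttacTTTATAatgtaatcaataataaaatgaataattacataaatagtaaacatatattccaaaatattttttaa
RpS27/Nup37, chr3R:25247463-25247563: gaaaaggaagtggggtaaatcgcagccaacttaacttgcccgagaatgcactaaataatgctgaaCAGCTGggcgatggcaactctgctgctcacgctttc
Ripalpha/RpL7, chr2L:10200986-10201086: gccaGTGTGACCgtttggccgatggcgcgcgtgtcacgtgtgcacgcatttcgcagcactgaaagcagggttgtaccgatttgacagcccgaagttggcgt
Chro/Ssl1, chr3L:22878854-22878954: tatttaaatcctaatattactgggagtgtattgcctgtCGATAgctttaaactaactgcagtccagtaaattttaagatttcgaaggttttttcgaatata
Dref/RpL13, chr2L:9967236-9967336: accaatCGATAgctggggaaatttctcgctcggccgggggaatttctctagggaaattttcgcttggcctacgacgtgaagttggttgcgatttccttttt
SF2/pad, chr3R:16342082-16342182: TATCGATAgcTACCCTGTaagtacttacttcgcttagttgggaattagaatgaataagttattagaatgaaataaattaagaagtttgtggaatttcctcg
RpL28/eIF1, chr3L:3222981-3223081: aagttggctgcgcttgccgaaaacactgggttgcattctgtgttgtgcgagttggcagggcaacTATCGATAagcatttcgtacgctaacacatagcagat
RpS25/CG4820, chr3R:11216317-11216417: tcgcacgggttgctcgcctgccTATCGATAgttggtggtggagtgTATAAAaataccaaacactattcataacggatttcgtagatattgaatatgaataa
The eIF4EHP/CG18428 window has a GC content of 12.9% and the Ripalpha/RpL7 window one of 59.4%. SF2/pad holds the DRE and ACAGGGTA within its first bases, at the edge of the window and not at the summit.

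The signal value is the authors' own height of each peak, and it was used only within a list. Over the 493 peaks it had a median of 217.5, with quartiles of 156.1 and 366.5 and a range of 117.1 to 6634. The 1107 peaks just upstream of other coding starts had a median of 225.4. Those just downstream of other starts had a median of 187.3, and the 2508 peaks more than 500 bp from any coding start also had one of 187.3. The tallest peak upstream of another start had 9620, above every divergent-pair peak. With all peaks cut into 10 equal classes by signal, divergent-pair peaks were 14.2% of the tallest class (exact 95% interval 11.0 to 17.8%). They were 8.84% of the lowest one (6.33 to 11.9%), and these intervals overlap. The shares did not fall steadily, with 10.7% in class 4 and 13.9% in class 6, counted from the tallest. Of the next 4309 regions of the authors' ranked list for both libraries together, 4.83% lay at divergent pairs, and of its lowest 4309 regions 1.42% did.

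The tallest peak lay between Art3, an arginine methyltransferase, and mRpS10, a protein of the small mitochondrial ribosome subunit. Its signal was 6634, the third highest of all peaks, with 3944 in replicate 2 and 2715 in replicate 3. The summit stood 114 bp from the Art3 start and 143 bp from the mRpS10 start, at position 15229522 of arm 3R. Both libraries placed their own summit within 1 bp of it.

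The D19B gene itself had the next tallest peak. It shares its promoter region with CG43293, a gene of the opposite strand on arm 3L whose start is 269 bp away. The signal there was 5238, with 3486 in replicate 2 and 1769 in replicate 3, and the summit at position 6185104 was 184 bp from the D19B start and 85 bp from that of CG43293. Its relative D19A, the neighbouring ZAD gene on the same strand, was in no divergent pair, and its peak had a signal of 252.5.

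Further tall peaks were of lower signal. eIF4EHP, a cap-binding protein that represses translation, and CG18428 shared a peak with 1928 in replicate 2 and 1097 in replicate 3. mRpS23, of the mitochondrial ribosome, and CenG1A, which acts on Arf GTPases, shared one with 997.9 in replicate 2 and 544.5 in replicate 3. The remaining ones follow by their genes. The pair of CG12093 and Atg2, an autophagy protein, had 1110 in replicate 2 and 654.0 in replicate 3. Myo95E, an unconventional myosin, and TBC1d7, a partner of the TSC growth regulators, had 979.7 in replicate 2 and 739.6 in replicate 3. CG6321 and Blos2, a subunit of the BLOC-1 complex of lysosome-related organelles, had 988.6 in replicate 2 and 505.6 in replicate 3. In all, 14 of the 15 tallest peaks were higher in replicate 2, and 1 was not.

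A pair with the chromatin protein MRG15 and tropomyosin 1 (Tm1) carried 1531 in replicate 2 and 752.1 in replicate 3. CG5611 and Mtl, a small GTPase, carried 983.3 in replicate 2 and 549.8 in replicate 3. CG7044 and Tbc1d22, which acts on Rab GTPases, carried 805.9 in replicate 2 and 643.7 in replicate 3. Further tall peaks were at Fbw5/CG9147 (2311 in replicate 2 and 1291 in replicate 3), CG5846/CG4658 (2273 in replicate 2 and 1188 in replicate 3), CG10194/CG18094 (1879 in replicate 2 and 740.4 in replicate 3) and CG2100/CG1236 (1338 in replicate 2 and 675.8 in replicate 3). Fbw5 is an F-box protein.

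**Figure D1:**
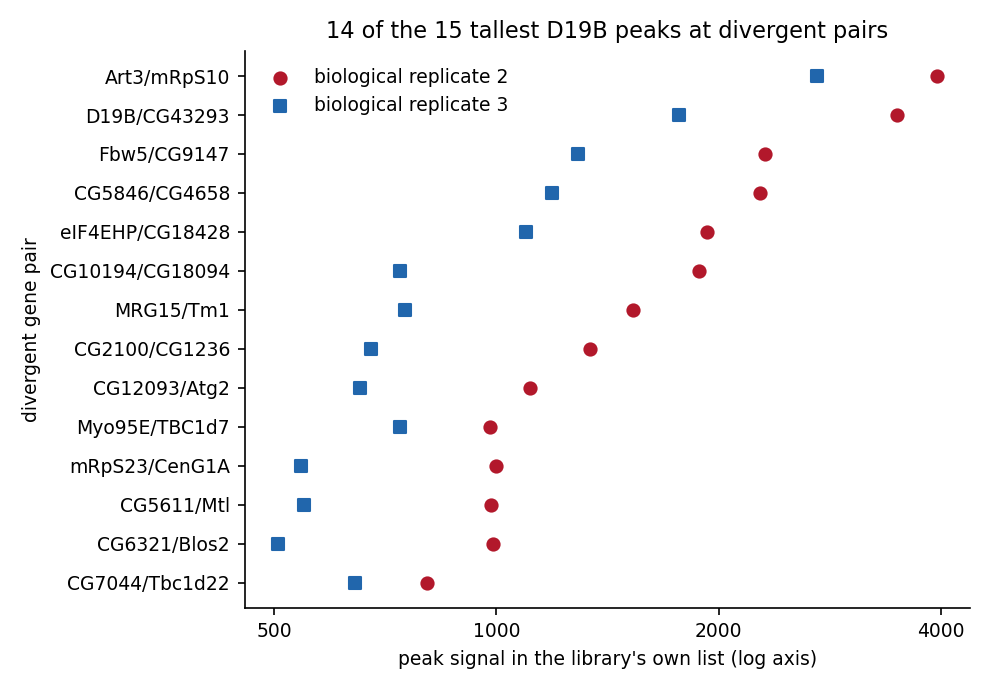
Signal of 14 of the 15 tallest divergent-pair peaks in the list of each library (log axis, 1 point per library). All 15 were found in both libraries, and the 14 plotted stood higher in replicate 2, while the peak left out did not.

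Replicate 3 held fewer of these peaks than replicate 2. A region of the replicate 2 list had its summit within 100 bp at 478 of the 493 peaks (97.0%, exact 95% interval 95 to 98.3%), against 96.6% of the other 3816 peaks (96.0 to 97.1%). In the replicate 3 list this held for 403 of the 493 (81.7%, 78.0 to 85.1%), against 90.8% of the other peaks (89.9 to 91.7%). Other promoter peaks lay between, with 87.9% upstream of other coding starts and 84.1% downstream of them. Of the peaks more than 500 bp from any coding start, 92.7% had one. Allowing 500 bp gave 84.4% of the divergent-pair peaks and 95.7% of the others in replicate 3. It gave 93.7% upstream and 88.6% downstream of other starts. Against all other peaks the intervals for replicate 3 did not overlap, and those for replicate 2 did. No intervals were computed for the single classes. The 77 peaks without a replicate 3 region within 500 bp had a median signal of 179.2, against 233.7 for the 416 that had one.

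Where both libraries had a summit, at 389 of the 493 peaks, 387 had the higher signal in replicate 2, and the median ratio of replicate 2 over replicate 3 was 1.92. That ratio was 1.91 over all 4309 peaks, close to that at the divergent pairs. No scaling links the 2 lists, and what part depth had in it was not tested. The tallest divergent-pair peaks with no replicate 3 region were CG13018/CG13016, with 540.1 in replicate 2, Gcn5/ver, with 325.2 in replicate 2, and Gk1/CG13876, with 335.9 in replicate 2. Gcn5 is a histone acetyltransferase and ver (verrocchio) a telomere protein. Taken alone and cut at 4309 regions, the replicate 2 list had 552 at divergent pairs (12.8%) and the replicate 3 list 370 (8.59%).

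Seen from the genes, the annotation held 1995 divergent coding pairs, and 508 of them had a summit within 500 bp of a start, which is 25.5% (23.6 to 27.4%). Of the 3815 genes in such pairs, 940 had a summit at a start of the pair, which is 24.6% (23.3 to 26.0%). Of the other 10153 coding genes 1100 had one, which is 10.8% (10.2 to 11.5%). Over all 13968 coding genes the share was 15.3%. The intervals for pair genes and other genes lay far apart. In part this comparison counts 1 summit for both genes of a pair, since 468 of the 493 summits (94.9%) were within 500 bp of both starts. Different pairs can share a summit too. Of the 493 summits, 471 lay at 1 gene pair only, while 1 on arm 3R lay at 21 pairs. The intervals treat pairs and genes as separate units and do not cover such sharing.

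Occupancy differed with the distance between the start sites. Of 429 pairs with starts 1 to 100 bp apart, 78 had a summit (18.2%, 14.6 to 22.2%), and of 357 pairs above that and up to 200 bp 59 did (16.5%, 12.8 to 20.8%). Above 200 and up to 300 bp it was 161 of 542 (29.7%, 25.9 to 33.7%). The highest share was above 300 and up to 400 bp, with 143 of 400 (35.8%, 31.0 to 40.7%), and above 400 and up to 500 bp it was 67 of 267 (25.1%, 20.0 to 30.7%). A wide pair also has a wider search region. With the same region for every pair, 250 bp to each side of the midpoint, the shares were 13.8%, 14.3%, 28.4%, 33.0% and 22.5% in the same order of spacing, and the 3 wider classes again stood above the 2 closer ones.

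**Figure D2:**
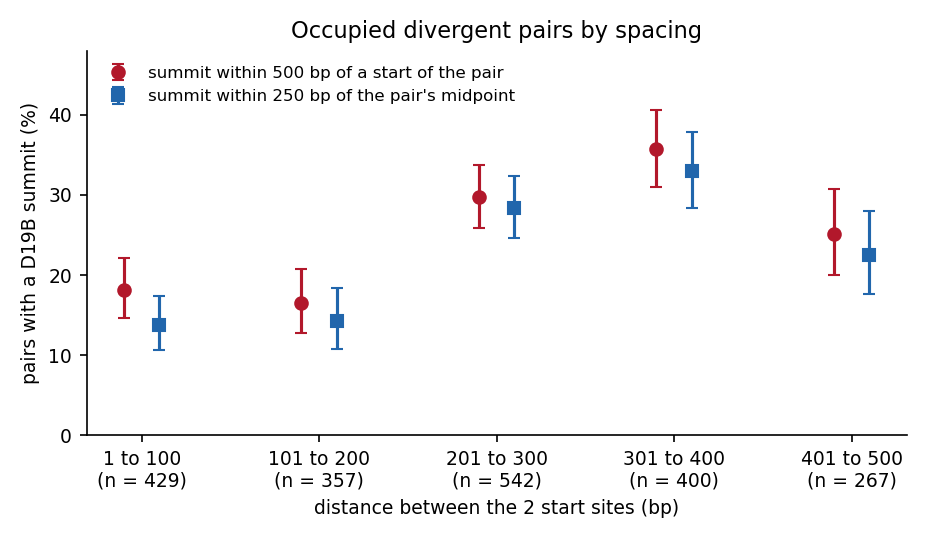
Share of divergent pairs with a D19B summit by the distance between their starts (bp), counted within 500 bp of a start (circles) or within 250 bp of the midpoint (squares), with exact 95% intervals. Pairs above 200 and up to 400 bp had the highest shares by both counts.

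Base composition changed with spacing as well. At the midpoint of pairs spaced by 1 to 100 bp, windows of 50 bp to each side had a median GC content of 45.5% in occupied pairs and 44.6% in pairs without a summit. Above 200 and up to 300 bp these were 25.7% in occupied pairs and 26.7% in pairs without a summit. Above 100 and up to 200 bp they were 37.6% in occupied pairs and 40.6% in pairs without a summit. They were 26.7% in occupied pairs and 27.7% in pairs without a summit above 300 and up to 400 bp, and 27.7% in both above 400 bp. The part of composition in the difference between the classes was not tested. At the summits themselves the median GC content was 29.7% over the 493 peaks and 33.7% over the other 3816.

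The summits sat in the shared promoter region and rarely on a start. Of the 493, 362 lay between the starts of the pair (73.4%, 69.3 to 77.3%). The nearest start was a median of 104 bp away (quartiles 63 and 139 bp), 453 were within 200 bp of it and 92 within 50 bp. Summits between the starts stood at a median of 52.5% of the way across from the minus-strand start (quartiles 37.4 and 67.7%). By annotation, 305 summits were intergenic, 105 in a 5′ UTR, 71 in an intron and 8 in coding sequence.

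At close pairs the summit lay beside the shared region and not in it. With starts 1 to 100 bp apart, 6 of 56 summits lay between them (10.7%), and the median distances were 83.5 bp to the nearer start and 129.5 bp to the farther one. Above 100 and up to 200 bp, 25 of 52 did (48.1%). At wider pairs most summits lay between the starts, with 83.8% above 200 and up to 300 bp, 88.1% up to 400 bp and 86.6% up to 500 bp. Wider starts also leave more room between them, and these shares are a description only. They use the pair of starts nearest to the summit, which for 40 of the 493 were not the closest starts of that gene pair. With the closest starts in their place, 338 summits lay between them (68.6%), and the shares were 7.69%, 42.3%, 80.7%, 90.8% and 86.1% from the closest class to the widest, a choice made after the values were seen. Among the tall peaks, Fbw5/CG9147 is an example of the close kind, with starts 134 bp apart and the summit 14 bp inside the 5′ UTR of CG9147.

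**Figure D3:**
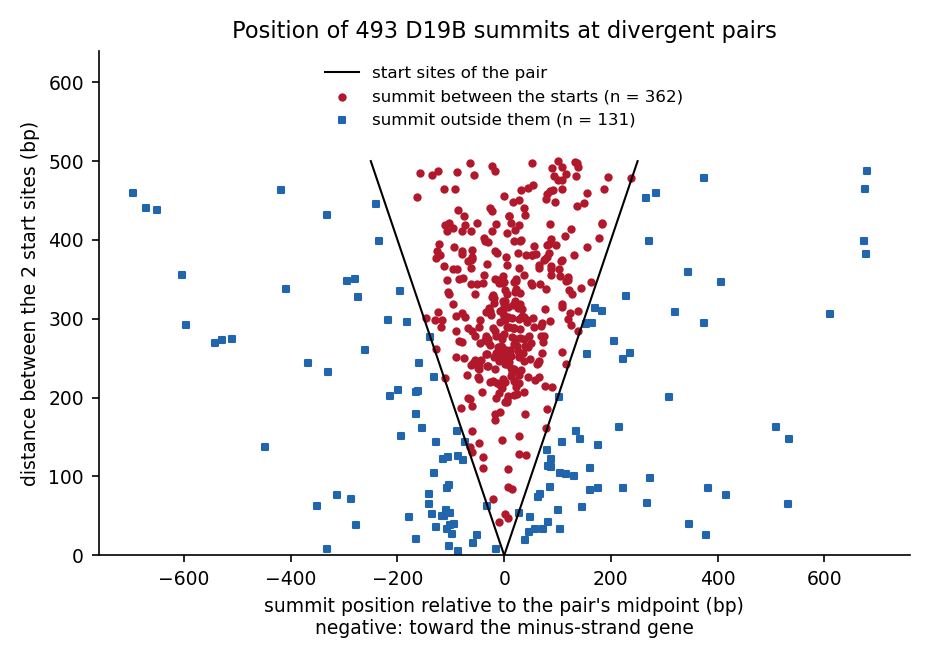
Position of each of the 493 summits relative to the midpoint of its pair (bp, negative toward the minus-strand gene) against the distance between the starts (bp), with the starts nearest to the summit. The lines are the starts. The 362 summits between them lie to both sides of the midpoint, while the 131 outside include 77 at pairs spaced by at most 200 bp. Above 400 bp, over all summits, the median distances were 140 bp to the nearer start and 321.5 bp to the farther one.

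Few divergent promoters had more than 1 peak. A pair of summits named the same gene pair in 29 cases, and none had more. MRG15/Tm1 held summits of 2291 and 803.8, the taller 15 bp from the MRG15 start. CG12093/Atg2 held 1762 and 712.5, with the taller 62 bp from the CG12093 start and the lower 38 bp from that of Atg2. At p38a/CG6178, where p38a is a stress-activated kinase, they were 824.7 and 118.6.

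The limits of 500 bp lie in a continuous range of distances. The summits farthest from a start that were still kept were at Cul5/Bicra (499 bp, signal 296.2), RpS19b/CG5854 (487 bp, 132.4) and PRL-1/EndoGI (474 bp, 199.1). Just beyond were summits at ATPsynCF6/Sec13 (511 bp, 1180), CG32590/Flo2 (512 bp, 154.8) and Hsp67Bc/Hsp22 (523 bp, 151.4). By spacing, su(Hw)/Polr2I (500 bp apart, 120.7), dgt5/CG8545 (499 bp, 179.8) and Pax/Alp12 (498 bp, 754.9) were the last kept, and mth/Ptpmeg (502 bp, 138.4), Cyp9f2/CG5167 (504 bp, 140.6) and PNPase/Gprk2 (505 bp, 1938) fell just beyond.

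Cytoplasmic ribosomal protein genes were the group with the highest occupancy. Of the 34 in divergent pairs, 29 had a summit (85.3%, 68.9 to 95%), and of the 52 not in pairs 32 did (61.5%, 47.0 to 74.7%). These intervals overlap, and both shares lie above the 24.6% of all pair genes and the 10.8% of other genes. Over the 33 peaks at pairs with 1 such gene the median signal was 225.6, against 217.5 over all 493 peaks. The range was 121.9 to 799.5, and 90.9% of the 33 had a replicate 3 summit. RpS27, opposite the nuclear pore gene Nup37, had 472.9 in replicate 2 and 324.4 in replicate 3. RpL7, opposite Ripalpha, had 401.8 in replicate 2 and 228.7 in replicate 3. RpL34b had 329.1 in replicate 2 and 173.5 in replicate 3, and RpL13A had 307.5 in replicate 2 and 175.9 in replicate 3.

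At these pairs the summit stood on the ribosomal protein side. It was nearer to the ribosomal protein start than to its partner's at 29 of 33 peaks (87.9%, 71.8 to 96.6%), with a median of 46 bp to the ribosomal protein start and 264 bp to the partner. It was 1 bp from the start of RpS27 and 32 bp from that of RpL7. The other lists with at least 10 such peaks ranged from 30.8% (vesicle traffic, 4 of 13) to 62.5% (translation factors and aminoacyl-tRNA synthetases, 10 of 16). In these 5 lists the median distance to the genes' own starts was 120 to 175 bp.

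Genes of the mitochondrion and of translation were near the level of all pair genes. In all these lists a gene counted as occupied also where the summit was nearer to its partner's start. The summit was nearer to the list gene at 6 of 11 peaks for respiratory chain and ATP synthase genes and at 1 of 4 for proteasome genes. Of 53 mitochondrial ribosomal protein genes in pairs 12 had a summit (22.6%), against 2 of 20 not in pairs. The tallest after mRpS10 and mRpS23 were mRpL23 (889.3) and mRpL24 (513.8). Respiratory chain and ATP synthase genes had 11 of 39 in pairs and 3 of 48 not in pairs, led by the complex I genes ND-MWFE (320.5) and ND-51 (252.0), then ATPsynE (193.8) and ATPsynCF6 (176.6). Translation factors and aminoacyl-tRNA synthetases had 14 of 43 in pairs and 8 of 49 not in pairs. Among those in pairs were eIF5B (1226), which helps join the ribosomal subunits, eIF1 (425.7), which helps choose the start codon, and the seryl-tRNA synthetase SerRS (378.4). The eIF1 peak is shared with the ribosomal protein gene RpL28, whose start was nearer to the summit (71 bp, against 310 bp for eIF1). None of the 6 mitochondrial import genes in pairs had a summit, with an exact 95% interval up to 45.9%.

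Genes of nuclear machinery followed. RNA polymerase, Mediator and general factor genes had 15 of 52 in pairs (28.8%) and 3 of 33 not in pairs, with Polr3E (476.1), Polr2B (369.4), MED17 (363.9) and MED30 (360.7) the tallest. Splicing genes had 7 of 24 in pairs and 1 of 12 not in pairs, with SF2 (736.9), Sf3b6 (542.3), U2af50 (386.8) and SmD3 (179.8). Replication and cell cycle genes had 5 of 34 in pairs and 4 of 36 not in pairs, a low share among these lists, and the tallest were Cdc16 (334.5), Cdk12 (318.2), PolE4 (306.9) and Cdc7 (240.1). DNA repair genes had 4 of 20 in pairs and 3 of 16 not in pairs (Irbp 305.5, Ercc1 217.5, Xpc 157.6 and Rad60 139.4). Proteasome genes had 4 of 24 in pairs and 1 of 24 not in pairs, all of them low, from Rpn5 (236.7) over Rpn13 (142.3) and Prosalpha6 (128.0) to Rpt5 (124.4). Ribosome biogenesis genes had 3 of 16 in pairs and 3 of 7 not in pairs (Rrp1 414.6, Rrp6 155.7 and Non2 124.5). Rrp1 came into that list by its symbol and encodes a DNA repair nuclease.

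Among chromatin regulators, the genes of insulator and architectural proteins had peaks at 6 of 8 in pairs (75%, 34.9 to 96.8%) and at 2 of 8 not in pairs (25%, 3.19 to 65.1%). These are small lists with wide, overlapping intervals. Of 6 peaks at pairs with 1 such gene, the summit was nearer to that gene's start than to its partner's at 1. Chro, which encodes the chromodomain protein Chromator, had 879.5 in replicate 2 and 530.8 in replicate 3. Cp190, a cofactor shared by several insulator proteins, had 526.5 in replicate 2 and 265.4 in replicate 3. Dref had 201.2 in replicate 2 and 118.2 in replicate 3, next to the ribosomal protein gene RpL13, whose start the summit was nearer to (27 bp, against 57 bp for Dref). M1BP had 272.4 in replicate 2 and 26.3 in replicate 3, a far larger gap than the median ratio.

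ZAD zinc-finger genes, the family of D19B, had 4 of 7 in pairs and 2 of 14 not in pairs. Apart from D19B these were pad (736.9), which shares its peak with SF2, M1BP (302.7, counted in both lists) and Zaf1 (194.2), for which no replicate 3 summit was found within 100 bp. The summit was nearer to the ZAD gene's start than to its partner's at 1 of 4 peaks. Polycomb, trithorax and remodeller genes had 4 of 16 in pairs and 2 of 12 not in pairs, and the summit was nearer to their own start at 4 of 4 peaks. brm, the ATPase of the SWI/SNF remodeller, had 605.8 in replicate 2 and 221.8 in replicate 3. E(z), the histone methyltransferase of Polycomb repressive complexes, had 281.6 in replicate 2 and 71.6 in replicate 3. The others of this list were Ino80 (395.9 in the IDR list), for which no replicate 2 summit was found within 100 bp, and Su(z)12 (175.8), for which no replicate 3 summit was.

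Genes of the secretory pathway and of RNA modification had shares near or somewhat above that of all pair genes. Glycosylation and GPI anchor genes had 9 of 25 in pairs (36.0%, 18.0 to 57.5%) and 2 of 17 not in pairs, and the tallest were PIG-F (1143), opposite the mitochondrial protease Lon, Stt3A (688.4), a subunit of the oligosaccharyltransferase, PIG-G (614.1) and Dad1 (402.1). tRNA and rRNA modification genes had 8 of 23 in pairs and 2 of 9 not in pairs, with the Elongator subunits Elp5 (910.3) and Elp6 (879.0), then Trmt6 (610.4) and Dus3 (308.3). Vesicle traffic genes had 13 of 56 in pairs and 7 of 54 not in pairs, with Vps33B (555.4), alphaCOP (477.3), Rab3GAP1 (314.7) and Vps50 (297.1). Peroxisome genes had 3 of 10 in pairs and 2 of 5 not in pairs (Pex11ab 881.1, Pex11c 184.7 and Pex13 152.2).

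Of all 13968 coding genes 27.3% were in divergent pairs, and genes used in particular cells or stages were seldom among them. Of 30 segmentation and Hox transcription factor genes none was in such a pair, of 33 neurogenesis genes 1 was, and of 121 cuticle protein genes 3 were, with no summit at any of these 4. Of 179 chemoreceptor genes 16 were in pairs, again with no summit (exact 95% interval up to 20.6%). Outside the pairs, 2 segmentation and Hox genes, 3 neurogenesis genes and 1 chemoreceptor gene had a summit, and no cuticle protein gene did.

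**Figure D4:**
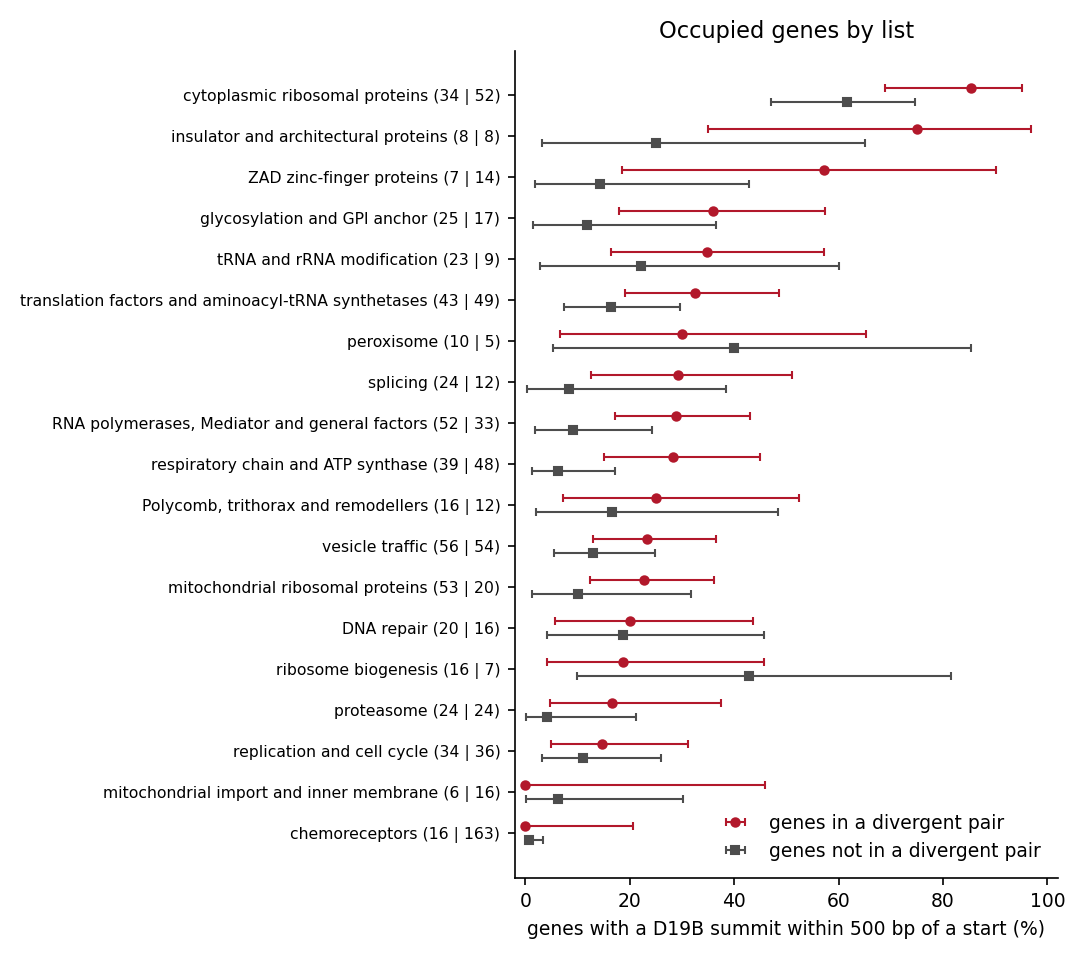
Share of genes with a D19B summit within 500 bp of a start, for genes in a divergent pair (circles) above genes not in one (squares), with exact 95% intervals, for lists with at least 6 genes in pairs. The number of genes in pairs and not in pairs is given after each name. Cytoplasmic ribosomal protein genes had the highest shares of both kinds, 85.3% and 61.5%.

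The arms differed. On the X chromosome 45 of 289 divergent pairs had a summit (15.6%, 11.6 to 20.3%), against 463 of 1699 on the 4 large autosomal arms (27.3%, 25.1 to 29.4%). Of other coding genes, 12.1% had a summit on the X and 10.6% on these arms. These arms were not uniform, with 28.4% on 2L, 27.3% on 3L and 30.6% on 3R, where 1 summit counted for 21 pairs. On 2R it was 21.2% (17.2 to 25.7%), an interval that overlaps that of the X. At spacings above 200 bp 17.2% of X pairs (11.9 to 23.7%) and 33.0% of the others (30.1 to 36.0%) had a summit. At 1 to 200 bp it was 13.0% of X pairs (7.49 to 20.6%) and 18.3% of the others (15.5 to 21.5%), with overlapping intervals. Both libraries alone showed it, with 17.3% on the X and 30.0% on the autosomal arms in replicate 2, and 11.1% on the X and 21.3% on the autosomal arms in replicate 3. Of the X peaks at divergent pairs 68.9% had a replicate 3 summit, against 83.0% on the autosomal arms. The small chromosome 4 had a summit at 0 of 7 pairs (exact 95% interval up to 41.0%).

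The words known from fly core promoters were searched within 50 bp of each summit on both strands. The DRE was in 21 of the 493 windows (4.26%, 2.66 to 6.44%), against 0.917% of 1308 windows at other promoter peaks (0.475 to 1.60%) and 0.399% of the 2508 at peaks over 500 bp from a coding start. It was in 7.67% of midpoint windows of the 1487 pairs without a summit (6.37 to 9.14%), a share above that of the 493 summits. At spacings above 200 bp it was in 4.16% of summit windows (2.39 to 6.66%), in 0.539% of midpoint windows of occupied pairs (0.0654 to 1.93%) and in 1.43% of midpoint windows of pairs without a summit (0.742 to 2.49%). CGATA, which is part of the DRE and counted with it, was in 18.1% of the 493 windows (14.8 to 21.7%), against 14.5% at other promoter peaks (12.7 to 16.6%), with overlapping intervals, and 30.1% of midpoints without a summit. At spacings above 200 bp it was in 17.4% of summit windows and 14.3% of midpoints without a summit, with overlapping intervals. The Motif 1 core was in 4 of the 493 (0.811%), against 0.688% at other promoter peaks and 4.30% of midpoints without a summit. At spacings above 200 bp it was in 0.779% of summit windows and in 0.239% of midpoints without a summit, also overlapping. Of the 4 windows, 3 were at ribosomal protein genes (RpL7, RpLP0 and RpLP1).

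A midpoint is not a summit, and at close pairs it lies on the core promoters themselves. The whole interval between the starts, with 50 bp added to each side, was therefore searched as well. At pairs spaced by more than 200 bp the DRE was in 24.0% of 371 occupied intervals (19.7 to 28.7%) and 22.3% of 838 without a summit (19.5 to 25.3%). The Motif 1 core was in 17% of occupied intervals (13.3 to 21.2%) and 24.9% of the others (22.0 to 28.0%), and CAGCTG was in 35.8% of occupied intervals (31.0 to 41.0%) and 29.0% of the others (25.9 to 32.2%). At pairs of 1 to 200 bp the DRE was in 12.4% of 137 occupied intervals (7.40 to 19.1%) and 21.0% of 649 others (17.9 to 24.3%), and CGATA in 49.6% of occupied intervals (41.0 to 58.3%) and 65.5% of the others (61.7 to 69.1%). For Motif 1 at the wider pairs, and CGATA at the close ones, the intervals did not overlap, and both words were less frequent in the occupied pairs.

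Of the 21 peaks with the DRE, 57.1% had a replicate 3 summit within 100 bp, against 82.8% of those without the word, and their median signal was 191.2, against 218.3. With so few peaks no difference is drawn from this. The tallest was at SF2/pad (736.9), whose window was given above. Other tall ones were at RpL28/eIF1 (425.7), RpL41/NaCP60E (349.4), RpS25/CG4820 (328.9) and RpL19/CG3776 (325.1), each of which holds a ribosomal protein gene.

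The word ACAGGGTA was rarer here than at peaks far from coding starts. It was in 5 of the 493 windows (1.01%, 0.330 to 2.35%), against 1.61% at other promoter peaks (0.997 to 2.44%) and 4.07% at peaks over 500 bp from a coding start (3.33 to 4.92%). It was in 0.269% of midpoint windows of pairs without a summit (0.0733 to 0.687%). In whole intervals of pairs spaced by more than 200 bp it was in 1.89% of those occupied (0.762 to 3.85%) and 0.358% of the others (0.0739 to 1.04%). The shares at pairs without a summit were lower, with overlapping intervals in both cases. All 5 were among the 246 taller divergent-pair peaks, at MRG15/Tm1 (2291), CG2100/CG1236 (2012), SF2/pad (736.9), qkr58E-3/PolE4 (306.9) and Irp-1B/Rrp46 (303.4). Because the word was taken from earlier results on these peaks, no link with height is drawn from this. The Art3/mRpS10 copy in the interval printed above lies outside the summit window.

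TATAAA was in 26.8% of the 493 windows (22.9 to 30.9%), against 22.0% at other peaks (20.7 to 23.3%). It was in 21.5% of midpoints without a summit (19.5 to 23.7%), and both of these intervals overlap that of the 493. At spacings above 200 bp it was in 27.8% of summit windows and in 29.6% of midpoints without a summit, with overlapping intervals. GAGAG (8.32% of the 493 and 8.78% of other peaks), the downstream promoter element core CGTG (21.5% of the 493 and 22.9% of other peaks) and the Zelda word CAGGTAG (0.406% of the 493 and 0.577% of other peaks) had overlapping intervals in these windows. CACACACA was in 1 of the 493 windows and in 0.786% of the others.

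With 150 bp to each side of the summit the intervals of more words were apart. The other peaks are here all 3816, and 2508 of them lay more than 500 bp from any coding start. Other promoter peaks and pairs without a summit were not counted apart at this width, so nearness to a promoter was not held equal. The DRE was then in 12.6% of the divergent-pair peaks (9.78 to 15.8%) and 2.07% of the other peaks (1.64 to 2.57%), and CGATA in 54.6% of the divergent-pair peaks and 34.6% of the others. The Motif 1 core was in 8.32% of the divergent-pair peaks (6.03 to 11.1%) and 1.28% of the others (0.951 to 1.69%), CAGCTG in 24.3% of the divergent-pair peaks (20.6 to 28.4%) and 11.1% of the others (10.1 to 12.1%), and TATAAA in 56.6% of the divergent-pair peaks and 46.1% of the others. Lower at the divergent-pair peaks were GAGAG, with 21.9% (18.3 to 25.8%) against 33.5% of the others (32.0 to 35.0%), ACAGGGTA, with 2.03% against 7.02% of the others, and CACACACA, with 2.03% against 5.69% of the others. CGTG, with 59.4% against 63.1% of the others, and CAGGTAG, with 1.22% against 1.73% of the others, had overlapping intervals. A match is a description of the letters and shows no binding.

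**Figure D5:**
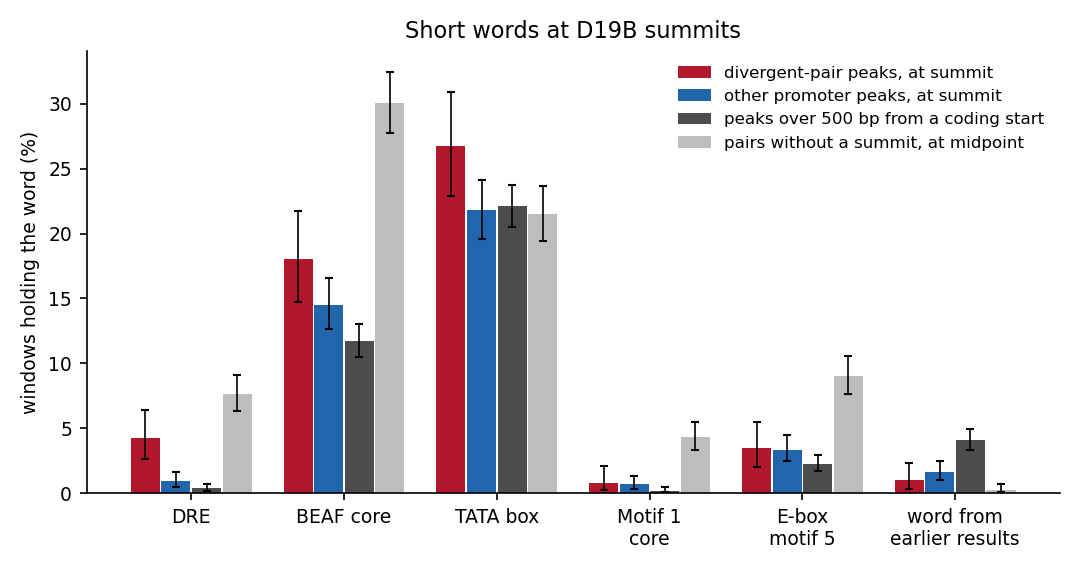
Share of windows of 50 bp to each side that hold each word on either strand, with exact 95% intervals, at the summits of the 493 divergent-pair peaks, other promoter peaks and peaks over 500 bp from a coding start, and at the midpoints of 1487 pairs without a summit. The DRE was in 4.26% of divergent-pair windows, 0.917% of other promoter windows and 7.67% of midpoint windows.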

How the data were processed

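The deposited files are peak lists of 2 libraries of 1 group, biological replicates 2 and 3. Per the file records deposited with the samples, the authors called regions against a control for each library and for both together, 30000 per list, and passed them to an IDR step, which left 4309 peaks on dm6. The signal of each region is the authors' deposited height, not scaled between lists, and each −log10 q was likewise set by the authors. The aligner, the caller and the IDR threshold were not given in the sources used here, nor were tool versions. Read depth is unknown from these lists, so no interval covers it. The dm3 lists were not used.

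Summit positions are 1-based. Genes came from Ensembl release 115 (FlyBase 6.54), without transposable elements, and sequence from genome release 6, which shares dm6 coordinates. In counts of pairs, a gene pair counted once, at the closest spacing of its starts, while each summit was placed by the pair of starts nearest to it. Summits of the libraries were matched within 100 bp. With 1 group there is no contrast, so no test was run. Shares carry exact Clopper-Pearson 95% intervals, which cover counting error only. Genes were named by rule: the pairs of the 15 tallest peaks, D19B and D19A, the 4 tallest pair genes of each of 22 lists, the 3 pairs with most summits, the 3 tallest peaks missing from a library, and the 3 nearest to each side of each limit. Lists match symbols and were not curated further. RpLP0, RpLP1 and the pairs given with a word fall outside that rule and were chosen after their values were seen. The peaks, lists, words and rules were chosen with earlier results of these data known. Of the named peaks, 1 of the 15 tallest peaks and 1 peak with a word are not reported here. Assignment was tested on simulated summits. Tables were handled with pandas 2.3.3 in Python 3.11.15, intervals computed with scipy 1.17.1 and numpy 2.4.6, and plots drawn with matplotlib 3.10.9.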

Additional observations from a re-analysis of the deposited data

How the results depend on the processing

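Each of 10 values was recomputed under 10 alternatives, and 57 of the 100 recomputed values stayed within 1.5 times the count, the interval of the share or the spread between libraries. Leaving out a library replaced the IDR list by the 4309 tallest regions of the other. No paired analysis was possible because both libraries belong to 1 group.

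With summits within 200 bp of a start, 18.4% of pair genes and 5.25% of other coding genes were occupied, 78.6% of summits lay between the starts and median GC was 28.7%. With 1000 bp, 13.7% of IDR peaks qualified, 28.7% of pairs, 27.4% of pair genes and 14.1% of other genes were occupied, 61.4% of summits lay between the starts and median GC was 30.7%. With spacing up to 300 bp there were 288 peaks (6.68%), 293 occupied pairs (22.1%), 21.8% of pair genes, 13.2% of other genes, 57.3% of summits between the starts and 93 occupied list genes, against 150. With spacing up to 1000 bp, 15.1% of IDR peaks qualified, 22.6% of pair genes and 9.90% of other genes were occupied, 77.3% of summits lay between the starts and median GC was 30.7%. With the outermost start of each gene, 10.2% of IDR peaks qualified and 9.17% of other genes were occupied. With the taller 50% of the peaks there were 273 (12.7%), 299 occupied pairs (15%), 14.1% of pair genes, 6.42% of other genes, a median signal of 344.7 and 91 list genes.

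Without replicate 2 or without replicate 3, the number of peaks was 370 or 552 (8.59% or 12.8%), of occupied pairs 395 or 560 (19.8% or 28.1%), and of occupied list genes 113 or 167. Pair genes were occupied at 18.9% or 27.2%, other genes at 9.73% or 11.3%. The median signal was 88.1 or 136.1, the share between the starts 76.5% or 74.3%, and the median GC 30.7% or 29.7%. Pair genes were occupied more often than other genes under all 10 alternatives.

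Alternatives added after seeing the data concerned ribosomal protein genes and spacing. Between 20 and 42 ribosomal protein pair genes were occupied, against 29. The fewest were with spacing up to 300 bp and the most up to 1000 bp, settings that also change which genes are in pairs. No share was computed for them. Pairs spaced above 200 and up to 400 bp stayed above those of 1 to 200 bp under all 10 alternatives, by 25.4% against 13.1% in replicate 3 alone.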
